A study of Homo sapiens with 6 samples.

Results

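Chromosome 18 was followed through 6 chromatin immunoprecipitation sequencing (ChIP-seq) libraries, which count the DNA fragments recovered with an antibody against a protein. Its members were all windows of 10 kb on chromosome 18 (hg19) with a mean of at least 10 reads over the 6 libraries. Of 7808 windows on this chromosome, which is 78077248 bases long, 7410 met this limit, or 2.66% of the 278395 windows kept from the whole table of 303641. The short arm was taken as the windows starting below 15400000, with 1480 members of 1540, and the long arm as those starting at or beyond 18500000, with 5929 members of 5958. Between the arms, where the centromere lies, 1 window of 310 was a member. Of the 398 windows left out, 342 held 0 reads in every library and 56 held some. The member nearest the limit, 12220001 to 12230000, held 3, 1, 12, 14, 8 and 23 reads (CDK2 at 0, 5 and 30 min, then PARP1 at 0, 5 and 30 min; mean 10.2), and the window just below it, 14490001 to 14500000, held 0, 31, 4, 8, 4 and 12 reads (mean 9.83).

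The cells were T47D-MTVL, a subline of T47D, an established human breast cancer line, with a stably inserted mouse mammary tumour virus reporter. All 6 libraries came from cells first kept in phenol red-free medium with charcoal-treated serum and then without serum. The 0 min cells had no treatment, and the others received 10 nM R5020, a synthetic progestin, for 5 or 30 min. Antibodies against CDK2 and against PARP1 gave 1 library for each antibody and time, so there is no replicate error for any value, and every comparison is between 2 libraries and not between conditions. The series asked whether CDK2 activates PARP1 in hormonal gene regulation.

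Chromosome 18 is among the human chromosomes poorest in genes, and in many nuclei it lies toward the periphery, where chromatin is often compact and replicates late. CDK2 is a cyclin-dependent kinase best known for driving entry into and passage through S phase. PARP1 is an abundant nuclear enzyme that binds DNA breaks and chromatin and attaches chains of ADP-ribose to itself, histones and other proteins, which loosens chromatin around it. Progestins act through the progesterone receptor, which binds hormone response elements and also starts rapid kinase signalling.

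The libraries held 40097131 reads (CDK2 at 30 min) to 63448449 reads (PARP1 at 30 min), and the median window of the whole table held 130 to 208 reads. They differed in evenness. The dispersion, the variance between neighbouring windows over that of independent reads, took the values 7.43, 52.2 and 24.0 in the CDK2 libraries (0, 5 and 30 min) and 6.11, 11.4 and 8.62 in the PARP1 libraries. All ratios below are of reads per library total, and their 95% intervals were widened by these dispersions. They still cover uneven counting within a library only, not differences between cultures. A count is an average over the cells of a culture, so more cells with the protein at a place and more protein per cell cannot be told apart. An input library was not analysed here, so copy number and mappability of a region enter its level, and their part was not tested. No window was given a gene name, because the available gene positions are those of GRCh38.p14 and not of hg19.

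Reads on chromosome 18 were thin for its length in all 6 libraries. CDK2 put 924547, 1161805 and 806641 reads on its members at 0, 5 and 30 min, and PARP1 put 1131671, 1176215 and 1278412. These were 2.05, 2.01 and 2.01% of the CDK2 libraries and 2.03, 2.01 and 2.01% of the PARP1 libraries, against 2.66% of the windows. The level, meaning the median reads per window divided by the median of all windows in that library, was 0.826, 0.778 and 0.777 for CDK2 and 0.830, 0.802 and 0.808 for PARP1. Every library thus stood below its own genome median here. Among the 23 chromosomes measured, chromosome 18 was the fourth to the sixth from the lowest in level in each library. Chromosome 4 was close to it (0.839 for CDK2 and 0.852 for PARP1 at 0 min), chromosomes 13 (0.960 and 0.962) and 20 (0.966 and 0.978) were higher, and X was the lowest (0.490 and 0.478).

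The arms were not alike. The median short-arm window held 113, 126 and 95 CDK2 reads and 140, 145 and 156 PARP1 reads, and the median long-arm window held 125, 149 and 103 CDK2 reads and 153, 156 and 171 PARP1 reads. The long arm was therefore the higher arm in all 6 libraries. In levels, the short arm ran from 0.681 (CDK2 at 5 min) to 0.769 (PARP1 at 0 min) and the long arm from 0.792 (CDK2 at 30 min) to 0.841 (PARP1 at 0 min). The windows of the arms overlapped widely: for PARP1 at 0 min the quartiles were 118 and 161 reads on the short arm and 132 and 175 on the long arm.

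In blocks of 1 Mb the level was flat over most of the chromosome and dropped at a few places. A block was used where it held at least 50 members, which left 74 blocks, 15 on the short and 59 on the long arm. The block next to the centromere on the short arm, from 14000001, had the lowest level, with 0.154, 0.154 and 0.192 for CDK2 and 0.165, 0.203 and 0.195 for PARP1 over 80 windows. The next lowest on this arm at 0 min was the block at 7 Mb for CDK2 (0.664) and the block at 12 Mb for PARP1 (0.695). The highest on the short arm at 0 min lay at 2 Mb (0.876 for CDK2, 0.854 for PARP1) and at 1 Mb (0.846 and 0.852). On the long arm the last full block before the telomere, at 77 Mb, was lowest at 0 min for both antibodies (0.638 for CDK2, 0.692 for PARP1), followed by the block at 75 Mb (0.698 for both). The highest long-arm levels at 0 min were at 32 Mb (0.919) and 38 Mb (0.916) for CDK2, and at 31 Mb (0.967) and 52 Mb (0.942) for PARP1. No block reached the genome median at 0 min with either antibody.

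**Figure D1:**
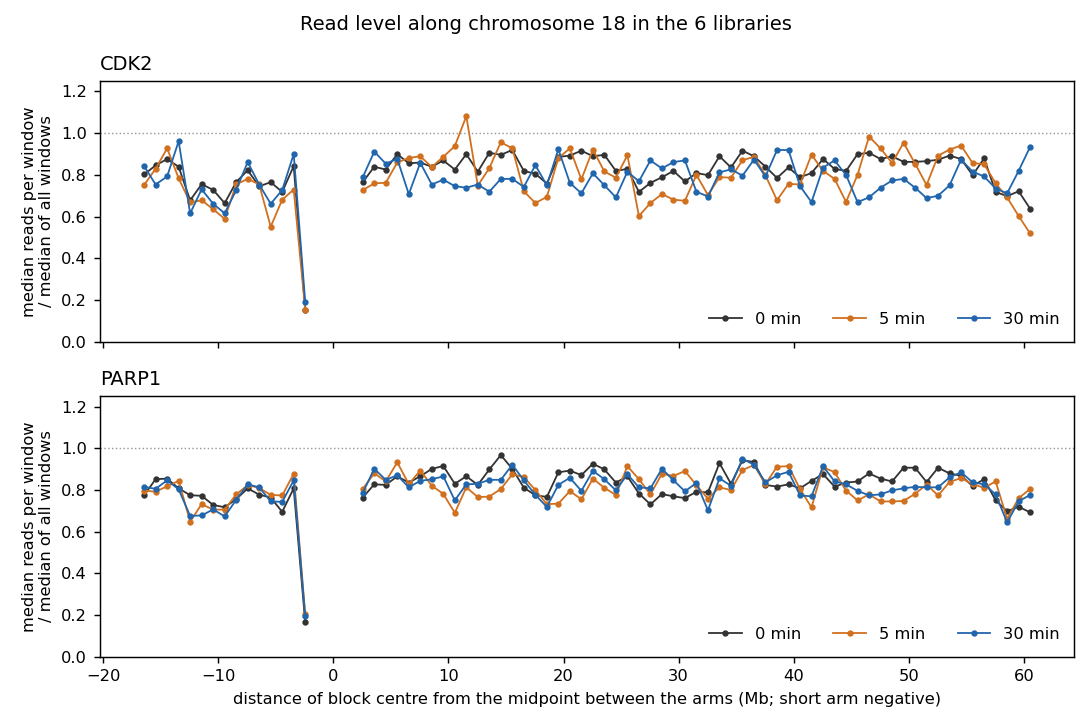
Level of each 1 Mb block of chromosome 18 (median reads per window over the median of all windows of that library, linear axis) against the distance of the block's centre from the midpoint between the arms, for CDK2 (upper) and PARP1 (lower) at 0, 5 and 30 min, 1 point per block and library. The dip to 0.154 to 0.203 is the last short-arm block before the centromere; the block nearest the long-arm telomere moved from 0.638 at 0 min to 0.519 at 5 min and 0.935 at 30 min for CDK2.

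Before hormone, the reads of the CDK2 and PARP1 libraries lay over the chromosome in almost the same proportions. An input library was not analysed here, so the part of background reads in this likeness was not tested. The ratio of CDK2 to PARP1 at 0 min over all members was 1.01 (95% interval 1.003 to 1.02), and over the 74 blocks it ran from 0.936 to 1.06 with a median of 1.02. None of the 74 blocks had an interval that left out 1. Of all 2811 blocks 1.42% had an interval above 1 and 1.85% below, so such blocks were rare throughout. On chromosome 18 the stretch of 5 blocks from 62000001 to 67000000 taken as 1 sum was at 1.03 (1.003 to 1.06). That stretch was chosen, as given further on, by a ratio that shares the CDK2 library of 0 min. The lowest blocks were at 7 Mb (0.936), 72 Mb (0.956) and 67 Mb (0.957), and the highest at 62, 14 and 38 Mb (1.06 each). The standard deviation of the block ratios on the log2 scale was 0.0387. For CDK2 against PARP1 after hormone it was 0.200 at 5 min and 0.113 at 30 min, and for the ratios to 0 min it was 0.0857 to 0.171. The 0 min libraries also had the lowest dispersion of each antibody (7.43 for CDK2, 6.11 for PARP1), and the part of this evenness was not tested.

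After hormone, the total share of reads on chromosome 18 moved little. The ratio to 0 min was 0.981 (0.967 to 0.995) for CDK2 at 5 min and 0.982 (0.970 to 0.993) at 30 min. For PARP1 it was 0.991 (0.983 to 0.999) at 5 min and 0.993 (0.986 to 1.000) at 30 min. All 4 lay within 2% of 1 and all 4 depended on the scaling: with each library scaled on the windows of lowest mean instead of its total they became 1.23, 1.08, 1.03 and 1.03. That scaling raised all log2 ratios by 0.325 for CDK2 at 5 min and by 0.144 at 30 min, so a direction for the whole chromosome cannot be read from these libraries.

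What scaling cannot move is the place of chromosome 18 among the others. It was the sixth from the lowest of 23 for CDK2 at 5 min, the eighth for CDK2 at 30 min, the tenth for PARP1 at 5 min and the ninth for PARP1 at 30 min. Relative to chromosome 4, which had a like level, it was lower in CDK2 at 5 min (0.960, 0.944 to 0.976) and higher in CDK2 at 30 min (1.06, 1.04 to 1.07), PARP1 at 5 min (1.05, 1.04 to 1.06) and PARP1 at 30 min (1.03, 1.02 to 1.04). Chromosome 13, a longer gene-poor chromosome, gave 0.958, 1.04, 1.04 and 1.02 in the same order. Against chromosome 20, which is rich in genes for its length, it was lower in CDK2 at 30 min (0.876, 0.861 to 0.891), PARP1 at 5 min (0.923, 0.913 to 0.933) and PARP1 at 30 min (0.950, 0.941 to 0.960), while at 5 min of CDK2 the interval held 1 (1.01, 0.990 to 1.03). Chromosome 18 thus sat between these chromosomes in the 3 comparisons other than CDK2 at 5 min.

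**Figure D2:**
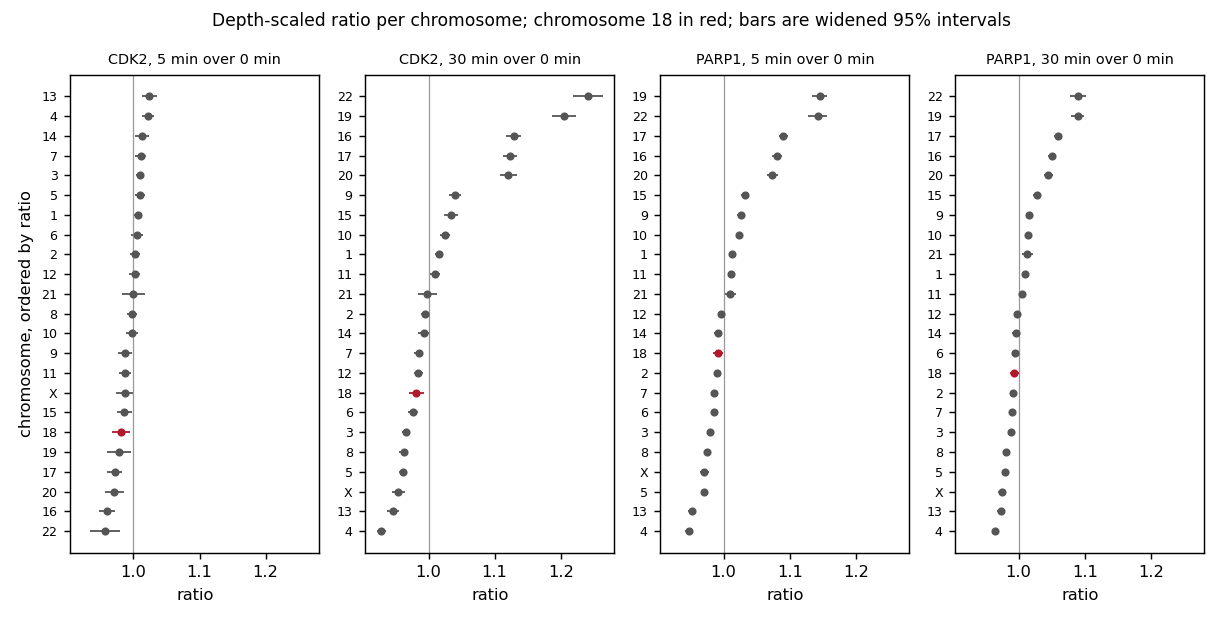
Ratio of each chromosome's reads after hormone to 0 min, scaled by library totals (linear axis), with 95% intervals widened by the dispersion, for both antibodies at 5 and 30 min; chromosomes are ordered by their ratio and chromosome 18 is in red. Its 4 ratios, 0.981 to 0.993, lie close to 1 while other chromosomes spread to both sides, more so for CDK2 at 30 min and PARP1 at 5 min.

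The arms went apart most clearly for CDK2 at 30 min. At 5 min the short arm was at 0.951 (0.920 to 0.984) and the long arm at 0.988 (0.972 to 1.003), a short over long ratio of 0.963 (0.929 to 0.9995). At 30 min the short arm was at 1.04 (1.01 to 1.07) and the long arm at 0.968 (0.955 to 0.981), a short over long ratio of 1.07 (1.04 to 1.11). For PARP1 the short arm was at 1.02 (1.004 to 1.04) and the long arm at 0.984 (0.975 to 0.992) at 5 min, a short over long ratio of 1.04 (1.02 to 1.06), and the ratio was 1.01 (0.990 to 1.03) at 30 min. The values of single arms depend on the scaling, which on the windows of lowest mean puts the short arm in CDK2 at 5 min at 1.19 and the long arm in CDK2 at 30 min at 1.07 and in PARP1 at 5 min at 1.02. The short arm was thus higher than the long arm in CDK2 at 30 min and PARP1 at 5 min. It was lower in CDK2 at 5 min, with an interval that barely left out 1. These arm-against-arm ratios do not change with scaling. They rest in part on single windows. Without the 2 highest windows of each arm the ratio was 1.04 (1.006 to 1.07) for CDK2 at 30 min and 1.02 (0.996 to 1.04) for PARP1 at 5 min, so the interval of the latter then held 1. For CDK2 at 5 min it was 0.964 (0.928 to 1.002), an interval that also held 1.

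The windows in question are few and very high. The window from 100001 to 110000, close to the short-arm telomere, held 11360, 13542 and 15335 CDK2 reads and 14627, 19895 and 19330 PARP1 reads. It was the fourth highest window of the whole table, at 73.2 to 118 times the median window, and it alone held 6.37 to 9.52% of the short-arm reads. Its ratio to 0 min was 0.930 (0.822 to 1.05) for CDK2 at 5 min, 1.52 (1.39 to 1.67) for CDK2 at 30 min, 1.30 (1.23 to 1.37) for PARP1 at 5 min and 1.16 (1.11 to 1.22) for PARP1 at 30 min. These intervals are widened by the dispersion of the comparison. That dispersion was estimated over all windows, most of them far lower, and whether it holds for so high a window was not tested. Its neighbour, 110001 to 120000, held 708, 835 and 853 CDK2 reads and 939, 1372 and 1088 PARP1 reads.

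The other high windows lay at the start of the long arm. The window from 18510001 to 18520000 held 9076, 11210 and 7686 CDK2 reads and 11100, 11435 and 13633 PARP1 reads, or 59.1 to 65.5 times the median window. It was the ninth highest of the table. Its intervals held 1 for CDK2 at both times (0.964, 0.841 to 1.11, and 0.953, 0.849 to 1.07) and for PARP1 at 5 min (0.982, 0.919 to 1.05), and left it out for PARP1 at 30 min (1.08, 1.02 to 1.14). Next to it, 18520001 to 18530000 held 1757, 1792 and 1938 CDK2 reads and 2036, 2230 and 2550 PARP1 reads. The fifth highest member, 41760001 to 41770000, was an ordinary window with 175, 408 and 237 CDK2 reads and 186, 250 and 206 PARP1 reads, so the very high counts were limited to these pairs of windows near a telomere and next to the centromere.

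Along the chromosome the blocks did not move together. For CDK2 at 30 min the 74 block ratios ran from 0.775 to 1.34 around a median of 0.959, with 13 intervals above 1 and 20 below. For PARP1 at 5 min they ran from 0.841 to 1.21 around 0.982, with 16 above and 18 below, and for PARP1 at 30 min from 0.871 to 1.15 around 0.992, with 8 above and 17 below. CDK2 at 5 min, the library with the largest dispersion, had wider intervals, and its ratios ran from 0.797 to 1.17 around 0.982 with 1 above and 10 below. The chromosome total near 1 thus combined blocks on both sides. Counts on either side of 1 depend on the scaling: 37.8% of the blocks were above 1 for CDK2 at 5 min and 39.2% at 30 min, and 98.6 and 71.6% with libraries scaled on the windows of lowest mean, while the order of the blocks stays.

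Other chromosomes mixed their blocks in other proportions. In CDK2 at 30 min 17.6% of the blocks of chromosome 18 had intervals above 1 and 27.0% below, against 6.42 and 44.4% on chromosome 4, 6.25 and 40.6% on chromosome 13, 64.4 and 1.69% on chromosome 20, and 25.4 and 27.9% over all 2811 blocks. The shares for PARP1 at 5 min were 21.6 and 24.3% on chromosome 18, and 29.0 and 29.8% over all blocks, and for PARP1 at 30 min 8 and 17 of the 74 blocks, against 701 and 704 of the 2811. CDK2 at 5 min had 1.35% above and 13.5% below on chromosome 18, against 4.73 and 4.16% over all blocks. The higher share was thus under that of all blocks in all 4 comparisons. The lower share was above it for CDK2 at 5 min, close to it for CDK2 at 30 min and under it for PARP1, and no test of these shares was run.

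**Figure D3:**
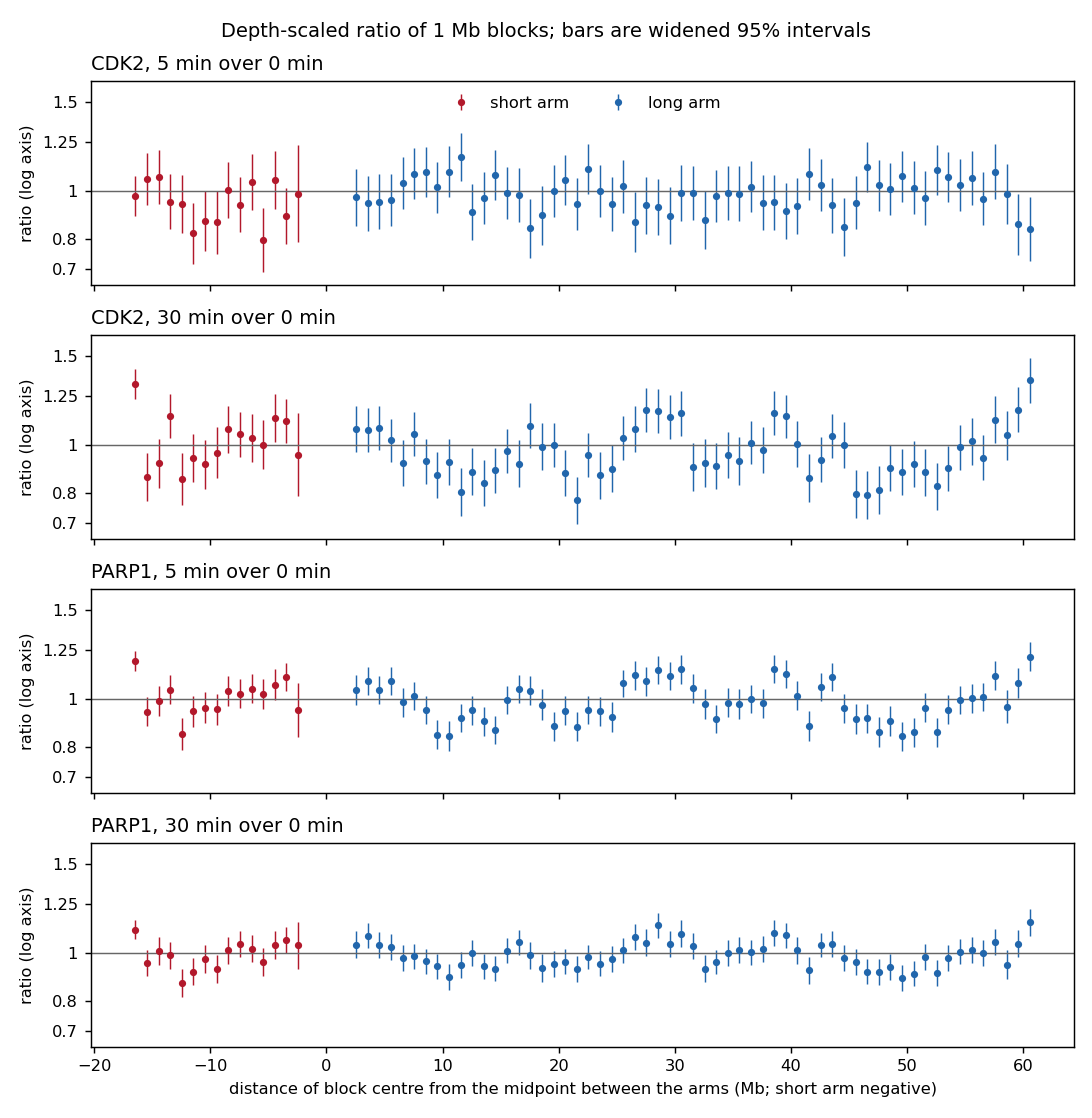
Ratio to 0 min of each 1 Mb block of chromosome 18 (log axis) with 95% intervals widened by the dispersion, against distance from the midpoint between the arms, for the 4 libraries after hormone; the short arm is red and the long arm blue. CDK2 at 30 min and PARP1 at 5 and 30 min share a high block at each telomere and like waves along the long arm, while CDK2 at 5 min does not follow them.

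Both telomeric blocks were the highest of the 74 for CDK2 at 30 min and PARP1 at 5 min, while for PARP1 at 30 min they were the first and the third and for CDK2 at 5 min neither was high. The block at 77 Mb, from 77000001 to 78000000, held 10027, 10779 and 11950 CDK2 reads. Its ratio to 0 min was 0.839 (0.725 to 0.971) for CDK2 at 5 min (1.05 with lowest-mean scaling) and 1.34 (1.21 to 1.49) at 30 min, the latter the highest block of the chromosome. For PARP1 it held 12416, 15784 and 16210 reads, and its ratio was 1.21 (1.13 to 1.30) at 5 min and 1.15 (1.08 to 1.22) at 30 min, again the highest of the 74 blocks in both. The higher counts were spread over the block: 69 of its 100 windows lay above 1 for CDK2 at 30 min and 74 of 100 for PARP1 at 5 min. Without its 2 highest windows the values were 1.34 (1.21 to 1.49), 1.21 (1.13 to 1.29) and 1.14 (1.07 to 1.22).

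The block at the other end, from 1 to 1000000, looked alike but rested on its highest windows. It held 22766, 28429 and 26723 CDK2 reads and 28402, 35400 and 35907 PARP1 reads over 96 windows. Its ratio was 0.975 (0.890 to 1.07) for CDK2 at 5 min, 1.32 (1.23 to 1.41) for CDK2 at 30 min, 1.19 (1.14 to 1.24) for PARP1 at 5 min and 1.11 (1.07 to 1.16) for PARP1 at 30 min. Without the windows 100001 to 110000 and 110001 to 120000 the last 3 became 1.11 (0.996 to 1.23), 1.05 (0.979 to 1.13) and 1.06 (0.996 to 1.13), so their intervals held 1.

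The blocks flanking the centromere were near 1 after hormone. The block at 14 Mb had 0.986 (CDK2 at 5 min), 0.955 (CDK2 at 30 min), 0.948 (PARP1 at 5 min) and 1.03 (PARP1 at 30 min), and all 4 intervals held 1. The block at 19 Mb had 0.970, 1.07, 1.04 and 1.04 in the same order, with intervals that all held 1.

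Other named blocks were in the interior. The third highest for CDK2 at 30 min was at 76 Mb (11394 reads against 10923; 1.17, 1.06 to 1.30), beside the telomeric one. The lowest were at 38 Mb (9440 against 13709; 0.775, 0.695 to 0.864), 63 Mb (9392 against 13288; 0.795, 0.713 to 0.887) and 62 Mb (9249 against 13024; 0.799, 0.716 to 0.892). At 63 Mb 73 of 100 windows lay below 1, which follows in part from naming the block for its low ratio. The third highest for PARP1 at 5 min was at 55 Mb (17371 against 14456; 1.15, 1.07 to 1.22) and the lowest were at 66 Mb (0.841, 0.787 to 0.899), 27 Mb (0.842) and 26 Mb (0.848). For PARP1 at 30 min the second highest was at 45 Mb (18613 against 14448; 1.13, 1.07 to 1.20), and the lowest were at 4 Mb (0.871, 0.817 to 0.928), 66 Mb (0.890) and 27 Mb (0.893). The blocks at 26, 27 and 66 Mb had PARP1 intervals below 1 at both times, and the block at 38 Mb, lowest for CDK2 at 30 min, was also at 0.879 for PARP1 at 5 min.

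CDK2 at 5 min picked out other blocks. Its highest were at 28 Mb (20057 reads against 13422; 1.17, 1.04 to 1.30), 63 Mb (1.11) and 39 Mb (1.10), the latter pair with intervals that held 1. Its lowest were at 11 Mb (0.797, 0.690 to 0.921), 5 Mb (0.823, 0.716 to 0.946; 1.03 with lowest-mean scaling) and the telomeric 77 Mb (0.839). The blocks at 28 and 63 Mb were low for CDK2 at 30 min (0.804 and 0.795).

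Neighbouring blocks resembled each other, so the differences covered several Mb. Over the 58 pairs of adjacent long-arm blocks, which share a chromosome and a library, the Spearman correlation between neighbours was 0.596 for CDK2 at 30 min, 0.629 for PARP1 at 5 min and 0.553 for PARP1 at 30 min. It was 0.292 for CDK2 at 5 min and -0.0953 for CDK2 against PARP1 at 0 min. There was no trend from centromere to telomere: the correlation with distance along the long arm was between -0.0389 and 0.0323 in these 5 comparisons.

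Stretches of at least 3 adjacent blocks with intervals on one side of 1 gave these waves a place. CDK2 at 30 min had 1 stretch above, from 44000001 to 48000000 (47510 reads against 46219; 1.16, 1.10 to 1.22). There were 3 below, from 28000001 to 32000000 (0.853, 0.809 to 0.900), from 62000001 to 67000000 (0.837, 0.798 to 0.878) and from 68000001 to 71000000 (0.868, 0.816 to 0.923). PARP1 at 5 min had a stretch above 1 from 42000001 to 48000000 (1.11, 1.08 to 1.14), and 2 stretches below it, from 26000001 to 29000000 (0.869, 0.836 to 0.903) and from 62000001 to 68000000 (0.880, 0.856 to 0.905). For PARP1 at 30 min 1 stretch, from 63000001 to 68000000, lay below (0.913, 0.890 to 0.938). CDK2 at 5 min had 1, on the short arm from 5000001 to 8000000, below 1 (0.852, 0.786 to 0.924; 1.07 with lowest-mean scaling).

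The 4 stretches chosen on CDK2 at 30 min were then read in the PARP1 libraries, which had no part in choosing them. The stretch at 44 to 47 Mb held 56323, 66058 and 69085 PARP1 reads at 0, 5 and 30 min, or 1.12 (1.08 to 1.16) at 5 min and 1.08 (1.05 to 1.11) at 30 min. The 3 low stretches had PARP1 ratios at 5 min of 0.906 (0.877 to 0.937) at 28 to 31 Mb, 0.885 (0.859 to 0.912) at 62 to 66 Mb and 0.921 (0.886 to 0.957) at 68 to 70 Mb. At 30 min they were 0.952 (0.924 to 0.980), 0.923 (0.899 to 0.948) and 0.954 (0.923 to 0.987). PARP1 therefore lay on the same side as CDK2 in all 4 stretches at both times. Its ratios were nearer 1, which follows in part from choosing the stretches by extreme CDK2 ratios. A shared side was also not particular to these stretches. Of all 2811 blocks, 0 had intervals of CDK2 at 30 min and PARP1 at 5 min on opposite sides, and 1 had them with PARP1 at 30 min.

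The same stretches differed in their level before hormone, also in PARP1. The high stretch had a level of 0.782 for CDK2 and 0.764 for PARP1 at 0 min, and the low ones had 0.886, 0.893 and 0.883 for CDK2 and 0.879, 0.868 and 0.879 for PARP1. After 30 min the CDK2 levels were 0.862 in the high stretch and 0.746, 0.715 and 0.719 in the low ones. The stretches were chosen by the ratio of CDK2 at 30 to 0 min, so both of these CDK2 levels entered the choice and their difference follows from it. The PARP1 levels at 30 min, which did not enter the choice, lay closer together than at 0 min, with 0.837 in the high stretch and 0.839, 0.788 and 0.827 in the low ones. CDK2 at 5 min was at 0.935 (0.876 to 0.998; 1.17 with lowest-mean scaling) of 0 min in the high stretch, and at 1.03, 1.03 and 1.04 in the low ones with intervals that held 1.

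Over the whole chromosome the antibodies sorted the blocks alike. CDK2 at 30 min and PARP1 at 5 min, whose ratios share no library, had 11 blocks with both intervals above 1, 14 with both below, and 0 on opposite sides. These were 14.9 and 18.9% of its blocks, against 22.2 and 22.7% of all 2811 blocks, of which also 0 lay on opposite sides. By the ratios alone 27 blocks were above 1 in both, 40 below in both and 7 split. CDK2 at 30 min and PARP1 at 30 min had 6 intervals above in both (8.11%, against 19.8% of all blocks), 11 below in both (14.9%, against 562 of the 2811) and 0 on opposite sides. The Spearman correlation over the 74 blocks was 0.852 for CDK2 at 30 min with PARP1 at 5 min, and 0.769 with PARP1 at 30 min, against 0.908 and 0.885 over all 2811 blocks. Blocks share position and neighbours, and all their reads share the depth and the base composition of a library, so these are descriptions.

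CDK2 at 5 min ordered the long-arm blocks the other way. With PARP1 at 5 min it had 0 blocks with both intervals above, 0 with both below, 1 above for CDK2 and below for PARP1, and 3 the reverse. The opposite sides made up 1.35 and 4.05% of its blocks, against 3.63 and 2.06% of all 2811 blocks. Of all blocks 0.249% were above in both and 0.640% below in both. The Spearman correlation was -0.362 over the 74 blocks, with -0.466 over the 59 long-arm and 0.154 over the 15 short-arm blocks. Over all 2811 blocks it was -0.390. With PARP1 at 30 min 3 blocks were below in both (4.05%, against 0.676% of all blocks). Another 2 were below for CDK2 and above for PARP1 (2.70%, against 1.64%), and 0 were the reverse (against 3.42%). That correlation was -0.283 over the 74 blocks, -0.453 on the long arm and 0.318 on the short arm. The counts by side depend on the scaling, and the correlations do not. Other scalings raised all log2 ratios of CDK2 at 5 min by 0.0633 to 0.325, which moves blocks out of the lower side.

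Set among the chromosomes, this likeness was on the weak side. The correlation of CDK2 at 30 min with PARP1 at 5 min was the sixth from the lowest of 23, where the range ran from 0.565 on chromosome 22 to 0.941 on chromosome 11 around a median of 0.895. With PARP1 at 30 min it was the second from the lowest, against a median of 0.875. For CDK2 at 5 min with PARP1 at 5 min it was near the median of -0.382. These ranks carry no test, and chromosomes differ in their number of blocks. They also differ in spread. For PARP1 at 30 min the log2 standard deviation was 0.0857 on chromosome 18, and 0.0982, 0.0964 and 0.0983 on chromosomes 4, 13 and 20. For CDK2 at 30 min it was 0.171, against 0.174, 0.165 and 0.170. The part of this spread in the ranks was not tested.

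**Figure D4:**
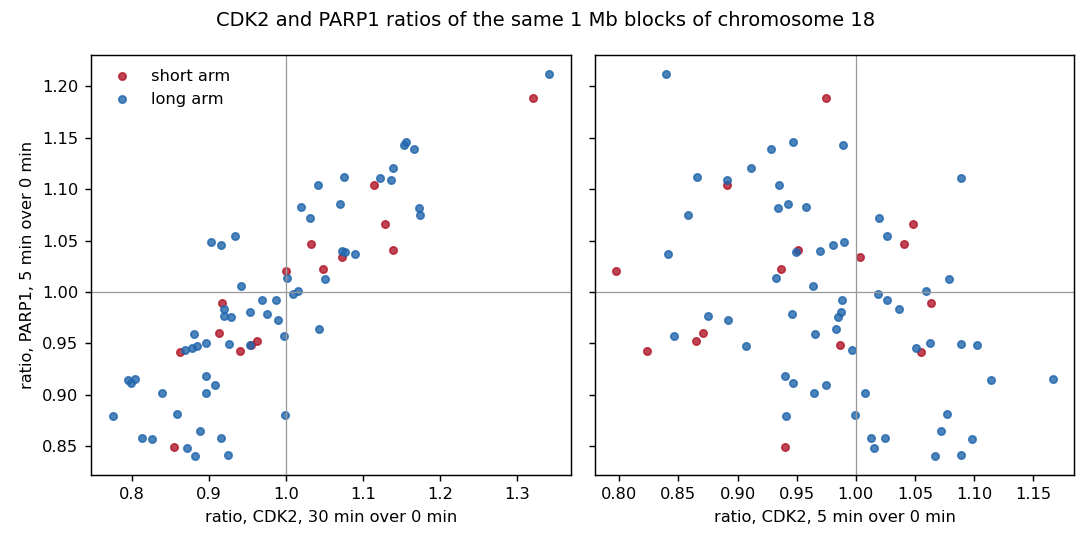
Ratio to 0 min of each of the 74 blocks in PARP1 at 5 min (y axis, linear) against CDK2 at 30 min (left) and CDK2 at 5 min (right), short arm red and long arm blue, 1 point per block. The left panel rises along the diagonal (Spearman 0.852), with both telomeric blocks at the upper right; in the right panel it falls (-0.362).

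Blocks that were rich in reads before hormone tended to be low for CDK2 at 30 min. To keep the measures apart, the CDK2 ratio was set against the PARP1 level at 0 min and the PARP1 ratio against the CDK2 level at 0 min. Over the 59 long-arm blocks the Spearman correlation with the level was -0.623 for CDK2 at 30 min, -0.544 for PARP1 at 5 min and -0.466 for PARP1 at 30 min, and 0.584 for CDK2 at 5 min. The 15 short-arm blocks gave -0.0395, 0.290, 0.236 and 0.291 in that order, so the relation was seen on the long arm.

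Over all 74 blocks chromosome 18 was at an extreme in one of these by Spearman's correlation. The correlation of the CDK2 ratio at 5 min with the PARP1 level was 0.552, the highest of the 23 chromosomes, whose median was 0.183. For CDK2 at 30 min it was -0.583, the third from the lowest, against a median of -0.407. On the log2 scale Pearson's r was 0.187 and -0.202, nearer 0, where the centromeric block at 14 Mb with its very low level lies far from the rest. Over the long arm, which leaves that block out, it was 0.557 and -0.651. By Pearson's r over all blocks chromosome 18 was not extreme at 5 min: chromosomes 21 (0.425), 10 (0.327) and 8 (0.320), among others, were higher. No other chromosome was split into arms, so the long-arm values have no counterpart to rank against.

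**Figure D5:**
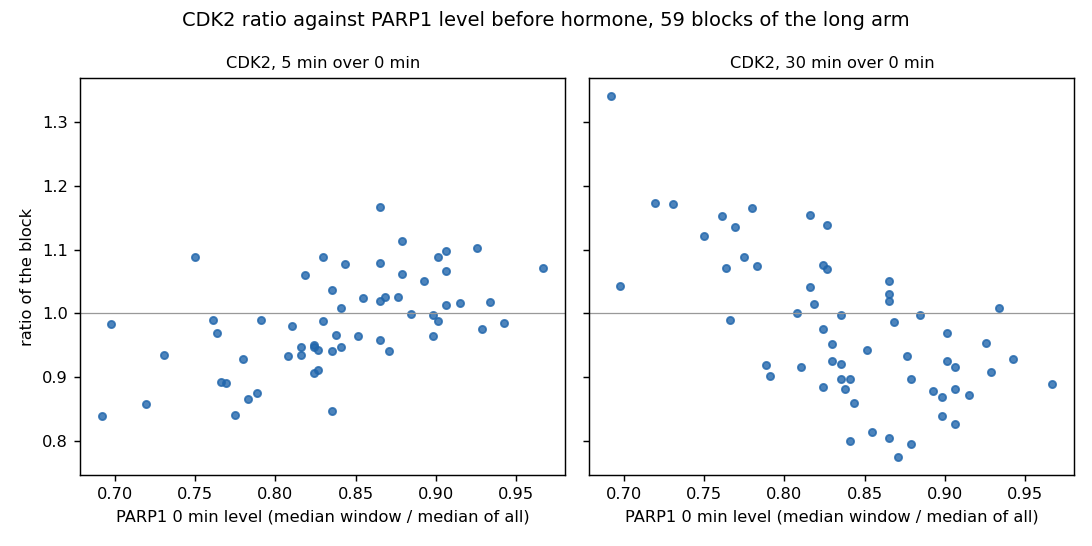
CDK2 ratio to 0 min at 5 min (left) and 30 min (right) of the 59 long-arm blocks (y axis, linear) against their PARP1 level at 0 min (median reads per window over the median of all windows), 1 point per block. Blocks of higher level lie higher at 5 min (Spearman 0.584) and lower at 30 min (-0.623).

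Single windows were compared with a call: a ratio of at least 2 or at most 0.5, and an exact binomial test adjusted by Benjamini-Hochberg over all 278395 windows under 0.05. For CDK2 at 5 min 547 members were higher (7.38%, against 6.21% of all windows) and 1452 lower (19.6%, against 16.2%). For CDK2 at 30 min 433 were higher (5.84%, against 5.46%) and 1074 lower (14.5%, against 11.5%). For PARP1 at 5 min 61 were higher (0.823%, against 0.893%) and 154 lower (2.08%, against 1.73%). For PARP1 at 30 min 39 were higher (0.526%, against 0.406%) and 42 lower (0.567%, against 0.587%). Between CDK2 and PARP1 at 0 min 53 windows were higher in CDK2 (0.715%, against 0.442%) and 70 lower (0.945%, against 0.733%). The members' shares were of the same order as those of all windows throughout. Once counts were divided by the dispersion of the comparison, 0 members were called in each of the 5 comparisons, against 0.000359, 0.0, 0.000359, 0.00251 and 0.00431% of all windows in the same order. That call needs a 2-fold difference and leaves few effective reads in an ordinary window, so smaller differences, such as those of the window from 100001 given above, are not called by it. The windows named next describe reads in these libraries, and have intervals that cover counting error only.

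The 3 windows named as lower in CDK2 at 5 min were empty in that library. The windows from 6140001 and from 63350001 each held 181 reads in CDK2 at 0 min and 0 at 5 min, at least 77.3-fold lower with 3 reads as the floor per library. At 30 min they held 146 and 133 reads, and PARP1 held 118, 133 and 174 in the first and 190, 182 and 162 in the second. The window from 38570001 held 158 reads at 0 min and 0 at 5 min, with 53 at 30 min. PARP1 reads were thus present where CDK2 at 5 min had none.

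Empty windows were frequent in this library. Of the 7410 members 134 (1.81%) held 0 reads in CDK2 at 5 min, against 2 at 0 min and 12 at 30 min of CDK2, and 0 for PARP1 at every time. The short arm had 44 of 1480 (2.97%) and the long arm 90 of 5929 (1.52%), while all chromosomes had 3986 windows (1.43%). The median count of these 134 windows elsewhere was 99 (CDK2, 0 min), 87 (CDK2, 30 min) and 126.5, 130.5 and 145.5 (PARP1). These medians exceed those of the empty windows of all chromosomes (74, 60, 91, 95.5 and 102).

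Higher windows in CDK2 at 5 min were the one from 46530001 (44, 376 and 176 CDK2 reads; 6.67, 4.87 to 9.34), the one from 56500001 (34, 237 and 63; 5.44, 3.79 to 8.04) and the one from 15220001 beside the centromere (0, 44 and 0 reads, at least 11.4-fold). PARP1 at 5 min held 79, 162 and 5 reads in these. For CDK2 at 30 min the higher windows were the one from 44810001 (60, 107 and 261 reads; 4.89, 3.68 to 6.59), the one from 34850001 (70, 2 and 280; 4.50, 3.45 to 5.93) and the one from 35400001 (0, 1 and 19, at least 7.13-fold). The lower ones were 49440001 (142, 79 and 1; 0.00792, 0.000199 to 0.0449), 76180001 (116, 263 and 1; 0.00970, 0.000243 to 0.0551) and 77040001 (76, 35 and 0, at least 22.5-fold). PARP1 at 30 min held 131, 135 and 16 reads in the higher and 138, 174 and 90 in the lower windows. The last of these lies in the telomeric block that was high as a whole. The windows from 15220001 and 35400001 had means of only 12 and 10.5 reads. Each met the limit of 10 only through the library in which it is named as higher, so its call carries no weight.

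For PARP1 at 5 min the higher windows were 44190001 (64, 220 and 162 PARP1 reads; 3.28, 2.47 to 4.40), 74090001 (89, 244 and 136; 2.61, 2.04 to 3.37) and 15230001 beside the centromere (5, 35 and 28; 6.67, 2.60 to 21.8). CDK2 held 133, 100 and 185 reads in the first and 126, 0 and 164 in the second. The lower windows were 5400001 (162, 25 and 163; 0.147, 0.0925 to 0.225), 4910001 (115, 31 and 155; 0.257, 0.167 to 0.385) and 52200001 (25, 3 and 7; 0.114, 0.0221 to 0.375). At 30 min the first was back at its 0 min count and the one from 4910001 was above it, and in CDK2 they held 155, 151 and 49, and 91, 90 and 25 reads, low at 30 min instead.

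For PARP1 at 30 min the higher windows were 32240001 (49, 118 and 162; 2.91, 2.10 to 4.09), 75720001 (7, 19 and 52; 6.53, 2.95 to 17.0) and 10640001 (10, 11 and 69; 6.07, 3.11 to 13.2). The lower ones were 75410001 (204, 226 and 89; 0.383, 0.296 to 0.494), 62240001 (86, 60 and 21; 0.215, 0.126 to 0.349) and 50001 near the short-arm telomere (45, 32 and 13; 0.254, 0.126 to 0.479). Only the first window of each set held over 100 reads in some PARP1 library, and the others were below the median window of the chromosome in all 3.

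Between the antibodies at 0 min, CDK2 was higher in the windows from 5800001 (169 reads against 77; 2.71, 2.06 to 3.60), 14480001 (26 against 6; 5.36, 2.16 to 15.9) and 15110001 (16 against 2; 9.89, 2.33 to 88.7). It was lower in 7380001 (35 against 152; 0.285, 0.191 to 0.413), 14700001 (4 against 32; 0.155, 0.0397 to 0.436) and 15220001 (0 against 12, at least 3.24-fold). Of these 6 windows 4 lay in or just beyond the sparse block at 14 Mb, where the level was lowest.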

How the data were processed

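Read counts per 10 kb window, whole numbers without normalization, were deposited by the authors as 1 table with 1 column for each of the 6 libraries. The submitters' processing notes name Bowtie 1.0.0 and the build hg19, also called GRCh37. The treatment of duplicates and of multiply matching reads: not given in the sources used here. Members, blocks and lists were chosen with earlier results of these data known.

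Libraries were scaled by their totals over all windows. Sums over blocks, arms and chromosomes have 95% intervals widened by the dispersion of each library, and single windows have exact Clopper-Pearson intervals, which cover counting error only. Windows were called as the report states, and calls were repeated on counts divided by a dispersion per comparison, taken around the local ratio of 20 windows on each side. Scripts were tested on simulated counts.

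Regions were named by rule: the 3 highest and 3 lowest blocks per comparison with 0 min and of CDK2 against PARP1 at 0 min, the 2 highest and 2 lowest levels per arm at 0 min, the end blocks of each arm, the 5 windows of highest mean, and per comparison the 3 higher and 3 lower called windows with the interval bound farthest from 1, at least 100 kb apart. The stretches are all runs of at least 3 blocks.

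Alternatives were TMM factors (edgeR 4.0.16), median-of-ratios factors (DESeq2 1.42.0), scaling on the 10% of windows with the lowest mean, count minimums of 5 and 50, folds of 1.5 and 3, blocks of 500 kb and 2 Mb, and leaving out the highest windows or 2 Mb at arm ends. Those tools gave scaling factors only. Python 3.11.15, numpy 2.4.6, scipy 1.17.1, pandas 2.3.3, matplotlib 3.10.9 and R 4.3.3 were used.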

Additional observations from a re-analysis of the deposited data

Results flagged for a closer look

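In 5 places the CDK2 libraries at 5 and 30 min lay on opposite sides of 0 min, with both intervals leaving out 1, and the direct ratio of 30 to 5 min is given here. It was 1.09 (1.05 to 1.14) for the short arm, 0.690 (0.599 to 0.793) for the block at 28 Mb, 1.37 (1.17 to 1.60) for the block at 76 Mb, 1.60 (1.36 to 1.88) for the telomeric block at 77 Mb and 1.24 (1.15 to 1.33) for the stretch at 44 to 47 Mb, which was chosen by its ratio of 30 to 0 min. With libraries scaled on the windows of lowest mean these became 0.964, 0.608, 1.21, 1.41 and 1.09, so the short arm changed direction. The same scaling put CDK2 at 5 min above 0 min in the short arm (1.19), at 76 Mb (1.07), at 77 Mb (1.05) and at 44 to 47 Mb (1.17), and among the 5 places the block at 28 Mb (1.46 at 5 min, 0.889 at 30 min) kept opposite sides. TMM and median-of-ratios scaling raised all log2 ratios of CDK2 at 5 min by 0.0633 and 0.0679. With either, the 5 min intervals of the short arm, the block at 77 Mb and the stretch at 44 to 47 Mb held 1. Without its 2 highest windows the short arm was at 1.004 (0.976 to 1.03) for CDK2 at 30 min against 0 min. Its interval then held 1, so the opposite sides of the short arm rest on those windows. The intervals cover uneven counting within the libraries, and with 1 library per time the difference between the times was not tested. The PARP1 ratio of the block at 77 Mb lay above 1 at both times (1.21 and 1.15).

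The 1 member between the arms, the window from 15400001, entered no comparison of arms or blocks. It held 114, 240 and 81 CDK2 reads and 99, 151 and 146 PARP1 reads, a mean of 138.5, while 308 of the 310 windows there held 0 reads in every library.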

How the results depend on the processing

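Leaving out a replicate was not possible with 1 library per antibody and time. No paired analysis was possible because each antibody and time had 1 library and the labels give no replicate numbers. Scaling multiplies all ratios of a comparison by 1 factor, so the order of blocks, the arm-against-arm ratios and the correlations do not move with it. Totals, single ratios and counts of blocks on a side of 1 do.

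With TMM, median-of-ratios and lowest-mean scaling, in this order, the chromosome ratio became 1.02, 1.03 and 1.23 for CDK2 at 5 min and 1.02, 1.02 and 1.08 at 30 min, all across 1, and 1.001, 0.9999 and 1.03 for PARP1 at 5 min. For PARP1 at 30 min lowest-mean scaling gave 1.03. CDK2 against PARP1 became 1.04, 1.04 and 1.20 at 5 min and 1.03, 1.04 and 1.07 at 30 min. The short arm became 0.994, 0.997 and 1.19 for CDK2 at 5 min and 1.08, 1.08 and 1.15 at 30 min, the long arm 1.03, 1.04 and 1.24 at 5 min and 1.002, 1.01 and 1.07 at 30 min. For PARP1 at 5 min the long arm became 0.993, 0.993 and 1.02, and lowest-mean scaling gave 1.06 for the short arm; at 30 min it gave 1.03 (short) and 1.02 (long). The share of blocks above 1 went from 37.8% to 60.8, 60.8 and 98.6% for CDK2 at 5 min, and from 39.2 to 71.6% with lowest-mean scaling at 30 min. That scaling also took CDK2 at 5 min across 1 in the block at 5 Mb (1.03), the blocks at 76 Mb (1.07) and 77 Mb (1.05), and the stretches at 5 to 7 Mb (1.07) and 44 to 47 Mb (1.17), and put the short arm at 0.964 for CDK2 at 30 against 5 min.

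Without the 1% of windows with the highest means the short arm was at 1.01 for CDK2 at 30 min and 1.0005 for PARP1 at 5 min, and short over long at 1.04 and 1.02. Without 2 Mb at the arm ends the short arm was at 1.01 for CDK2 at 30 min, 0.993 for PARP1 at 5 min and 0.979 for PARP1 at 30 min, with short over long at 1.02 for PARP1 at 5 min. Without the 2 highest windows per arm, chosen after seeing the data, short over long was 1.04 and 1.02. Calls numbered 1999, 1507, 215, 81 and 123 in the 5 comparisons, 3718, 3247, 1396, 875 and 959 with a fold of 1.5, 901, 461, 24, 11 and 12 with a fold of 3, and 0, 0, 0, 0 and 0 after division by the dispersion. The correlation of CDK2 at 30 min with PARP1 at 5 min was 0.747 over 150 blocks of 500 kb and 0.916 over 38 blocks of 2 Mb; over the latter it was 0.854 with PARP1 at 30 min, and CDK2 with PARP1 at 5 min gave -0.560.

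The uneven CDK2 library of 5 min sets the widest intervals, so small differences in 1 Mb were not detectable there.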
